A study of Arabidopsis thaliana with 18 samples.

Results

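The 10 genes described here belong to the machinery that carries plant cells through mitosis and cytokinesis: the cyclins CYCA1;1, CYCB1;1, CYCB1;2, CYCB1;4, CYCB2;1 and CYCB2;2, the kinases CDKB2;1 and CDKB2;2, and the cytokinesis genes KNOLLE and HINKEL. They were taken by their AGI locus ids from a table of 37336 genes, and all 10 were found and passed the filter on low counts. RNA was sequenced from shoot apices of Arabidopsis thaliana (ecotype Col-0) grown for 42 days in short days of 8 h light and 16 h dark. Plants of 3 genotypes, wild type (WT), the florigen mutant ft-10 (ft) and the antiflorigen mutant tfl1-1 (tfl1), were sampled untreated or after a single 24 h far-red-enriched photoperiod (FRP), with 3 libraries in each of the 6 groups. FRP began at the end of the short day and took the place of the 16 h night and the following 8 h day of the controls. Its light was richer in far-red and less intense than that of the controls. The study used this treatment to induce endogenous FT. Each library came from inflorescence shoots freed of leaves and roots, which hold more than the meristem. The labels mark 2 libraries of each group as analysed for differential expression, and these 12 gave the main tests. The study's methods say that they were selected after a principal component analysis, without a reason for the choice, so values of the other 6 are shown beside them.

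Cyclins are the regulatory partners of cyclin-dependent kinases, and in plants the A1-type and B-type cyclins accumulate around the G2 to M transition and are destroyed as mitosis ends. CDKB2 kinases are specific to plants, peak in G2 and M phase and are needed for divisions in the shoot meristem. After the chromosomes separate, a plant cell divides by building a cell plate from the inside out within the phragmoplast, an array of microtubules: KNOLLE is the syntaxin that fuses vesicles into the plate, and HINKEL (also NACK1) is the kinesin that, through a MAP kinase cascade, lets the phragmoplast expand. Many of these genes carry the mitosis-specific activator (MSA) element, to which MYB3R transcription factors bind.

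The MSA element has the core AACGG, and its matches before the genes are shown here because the members act in one phase of the cell cycle. The 300 bases before the most upstream annotated start of each gene were read from the TAIR10.1 assembly of RefSeq and searched on both strands for AACGG, whose reverse complement is CCGTT. At least 1 match stood before 8 of the 10 genes, against 23.4% of 27431 protein-coding genes, and at least 2 matches before 6 of the 10, against 4.53%. The window of CYCB1;4 held none, and so did that of CDKB2;1, which overlaps a neighbouring gene. These windows are given 5′ to 3′ on the strand of the gene, with the matches in capitals: that of CYCB1;2 (chr5:1861704-1862003, minus strand), which had the most matches, those of the sister genes CYCB2;1 (chr2:7663755-7664054, plus strand) and CYCB2;2 (chr4:16901296-16901595, plus strand), and that of HINKEL (chr1:6324379-6324678, minus strand), the one member called higher after FRP in both WT and tfl1.
CYCB1;2: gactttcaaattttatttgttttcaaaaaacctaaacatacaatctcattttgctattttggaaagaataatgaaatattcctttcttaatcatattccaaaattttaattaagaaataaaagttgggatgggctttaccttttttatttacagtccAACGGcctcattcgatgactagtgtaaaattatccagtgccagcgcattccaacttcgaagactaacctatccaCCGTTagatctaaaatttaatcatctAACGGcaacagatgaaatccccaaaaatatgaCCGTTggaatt
CYCB2;1: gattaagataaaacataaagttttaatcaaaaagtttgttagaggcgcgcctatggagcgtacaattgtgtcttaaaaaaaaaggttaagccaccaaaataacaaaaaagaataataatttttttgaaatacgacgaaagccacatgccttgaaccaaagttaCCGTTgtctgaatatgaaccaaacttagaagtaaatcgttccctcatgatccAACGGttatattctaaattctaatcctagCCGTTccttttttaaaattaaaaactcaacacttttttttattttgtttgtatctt
CYCB2;2: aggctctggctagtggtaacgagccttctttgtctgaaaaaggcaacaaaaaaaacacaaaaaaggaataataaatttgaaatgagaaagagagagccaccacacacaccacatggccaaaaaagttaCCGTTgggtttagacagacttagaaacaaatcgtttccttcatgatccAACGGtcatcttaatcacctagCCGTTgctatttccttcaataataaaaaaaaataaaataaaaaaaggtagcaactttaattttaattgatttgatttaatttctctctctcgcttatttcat
HINKEL: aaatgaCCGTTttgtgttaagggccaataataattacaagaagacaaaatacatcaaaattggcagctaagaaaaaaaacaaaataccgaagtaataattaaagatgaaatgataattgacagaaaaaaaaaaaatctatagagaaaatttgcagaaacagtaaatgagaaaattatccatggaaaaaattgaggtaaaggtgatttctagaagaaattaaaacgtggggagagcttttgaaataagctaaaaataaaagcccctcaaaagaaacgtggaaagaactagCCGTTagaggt
Both B2-type cyclins carried 3 matches in the same order and orientation, and a stretch around each was the same base for base. These shared stretches were aaagttaCCGTTg (13 bases), tcatgatccAACGGt (15 bases) and cctagCCGTT (10 bases). HINKEL had a match that started 11 bases before the annotated start, as did CYCB1;2, and that of KNOLLE started 12 bases before it. A match describes the letters only, and binding was not measured here.

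**Figure D1:**
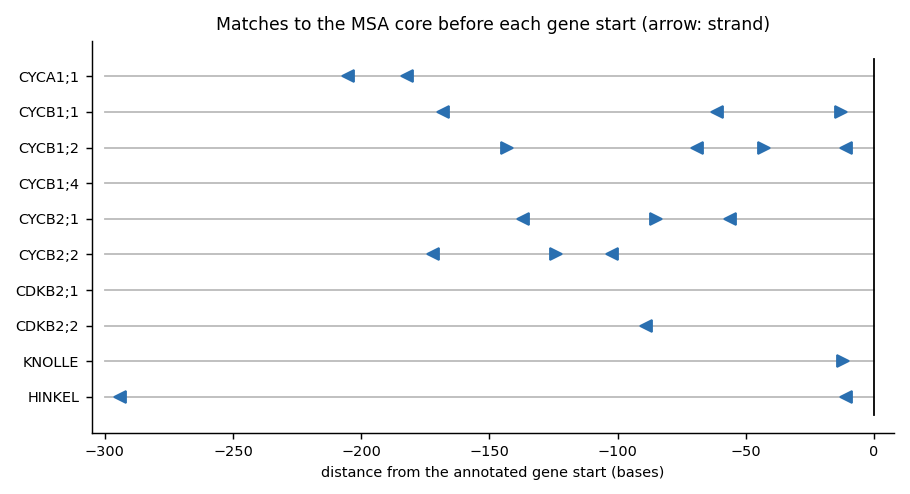
Positions of the MSA core in the 300 bases before each of the 10 genes. The x axis is the distance in bases from the annotated gene start, each arrowhead is 1 match and points along its strand, and the pair of B2-type cyclins shows 3 matches in the same order, while CYCB1;4 and CDKB2;1 show none.

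The libraries held 20470477 to 35851716 gene counts (median 30942643.5), of which each of the 10 genes took 58 to 2220. FT had 11 to 36 counts in the libraries labelled ft and 0 to 3 in all others, so its count separated the ft libraries but did not show a loss of its RNA, and the labels were used as given. TFL1 counts ran from 172 to 208 in untreated and from 1461 to 1647 in treated tfl1, against 66 to 451 in WT and 114 to 366 in ft. Among markers of the shoot meristem STM and KNAT1 had 795 or more counts in every library, while CLV3 and WUS were near 0 (at most 18 counts). Of 4 root markers PLT1, EXPA7 and COBL9 had at most 3 counts, but WOX5 had 40 to 82 in untreated and 3 to 38 in treated libraries. Of 3 floral organ markers AG and AP3 had at most 6 counts and PI at most 20. Untreated WT replicate 1, one of the 6 libraries outside the main test, stood apart from its group in most of the 10 genes, and the FRP differences in WT are therefore given both for the 12 libraries and for all 18, which include it. Reads of a gene and of an overlapping gene on the other strand could not be told apart by strand, which the counting ignored. Reads ambiguous between genes were credited to none.

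Levels were compared between genes as CPM (counts scaled to a common library size by TMM over all 18 libraries) per kilobase of the longest annotated transcript. KNOLLE was the most abundant, at 34.5 ± 11.3 CPM per kb (SD over 18 libraries of all groups), followed by the kinases CDKB2;1 at 27.2 ± 4.58 and CDKB2;2 at 20.6 ± 4.31. The cyclins CYCB1;2 (20.09 ± 6.88), CYCA1;1 (16.5 ± 3.93), CYCB2;2 (14.5 ± 2.70), CYCB1;4 (12.7 ± 3.72) and CYCB1;1 (9.43 ± 2.57) came next. HINKEL, at 8.82 ± 4.01, and CYCB2;1, at 3.38 ± 1.35, were lowest. Neighbours in this order differed by less than the larger of their SDs, except the pair of kinases and, at the lower end, HINKEL and CYCB2;1. No stretch of 50 bases, the shortest read the authors kept, was shared between the annotated transcripts of any of the 45 pairs of members.

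In ft, all 10 genes stood lower after FRP: each had a lower level in each of the 3 treated libraries than in any of the 3 untreated ones. Of all genes, 30.2% of 21442 showed this separation downwards in ft. In the 12 libraries the quasi-likelihood test of edgeR, with Benjamini-Hochberg adjustment over 21277 genes and a threshold of 0.005, called 8 of the 10 lower and 0 higher, where 12.6% of all genes were called lower and 12.8% higher. DESeq2 called 9 lower and 0 higher, beside 2596 and 2907 of all genes. An unadjusted p under 0.05 was reached by 10 lower and 0 higher. The share of all genes under this unadjusted limit is not given, here or below. The log2 differences of treated minus untreated plants ran from -1.13 for KNOLLE to -0.35 for CYCA1;1, with a median of -0.59 against -0.0056 for all genes. Over all 18 libraries the median was again -0.59, but the test called only 2 lower, CYCB1;1 and KNOLLE, and 0 higher (6.49% and 5.43% of all genes), with 9 lower and 0 higher at an unadjusted p under 0.05. Without untreated WT replicate 1, which is in neither ft group but enters the shared spread, 8 of the 10 were called lower again (13.6% of all genes). These were all but CYCA1;1 and HINKEL, as in the 12 libraries. Leaving out 1 ft library left its group with 1. The members' median was then -0.58 without treated replicate 1 or 3, -0.56 without untreated replicate 2 and -0.62 without untreated replicate 3. In each of these fits fewer members were called lower, and so were fewer of all genes. In bulk RNA of this kind, fewer dividing cells and less of each RNA per dividing cell cannot be told apart.

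In WT and tfl1, in the 12 libraries, fewer members were called after FRP than in ft and they pointed both ways. In WT the test called HINKEL higher and CYCA1;1 and CYCB1;4 lower, so 1 higher and 2 lower of 10, beside 33% and 33.4% of all genes. In tfl1 it called 2 higher, HINKEL and CYCB1;2, and 3 lower, KNOLLE, CYCA1;1 and CYCB1;4, beside 24.6% and 21.5% of all genes. The members' counts in these genotypes were near or below the shares of all genes. Their median log2 difference was -0.21 in WT and 0.0096 in tfl1, against -0.023 and 0.019 for all genes. Over all 18 libraries the members' median in WT was -0.52, and -0.31 without untreated WT replicate 1, while in tfl1 it was -0.013 in both. Over all 18 libraries WT had 0 higher, also at an unadjusted p under 0.05, and 4 lower, adding CYCB2;2 and CDKB2;2 (24.5% and 28.1% of all genes), and tfl1 had 1 higher and 2 lower (18.2% and 17.4%). Without untreated WT replicate 1 HINKEL was called higher in WT (log2 difference 1.31) and the same 4 members lower, beside 33.5% and 34.8% of all genes. In tfl1, HINKEL and CYCB1;2 were then called higher and KNOLLE, CYCA1;1 and CYCB1;4 lower, as in the 12 libraries (5934 and 5358 of all genes). Treated and untreated libraries did not overlap for 10 genes in tfl1, 5 above and 5 below, and for 4 genes in WT, all below, in these 18 libraries. The same separation was found for 36% of all genes above and 34.7% below in tfl1, and for 30.6% above and 31.6% below in WT.

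**Figure D2:**
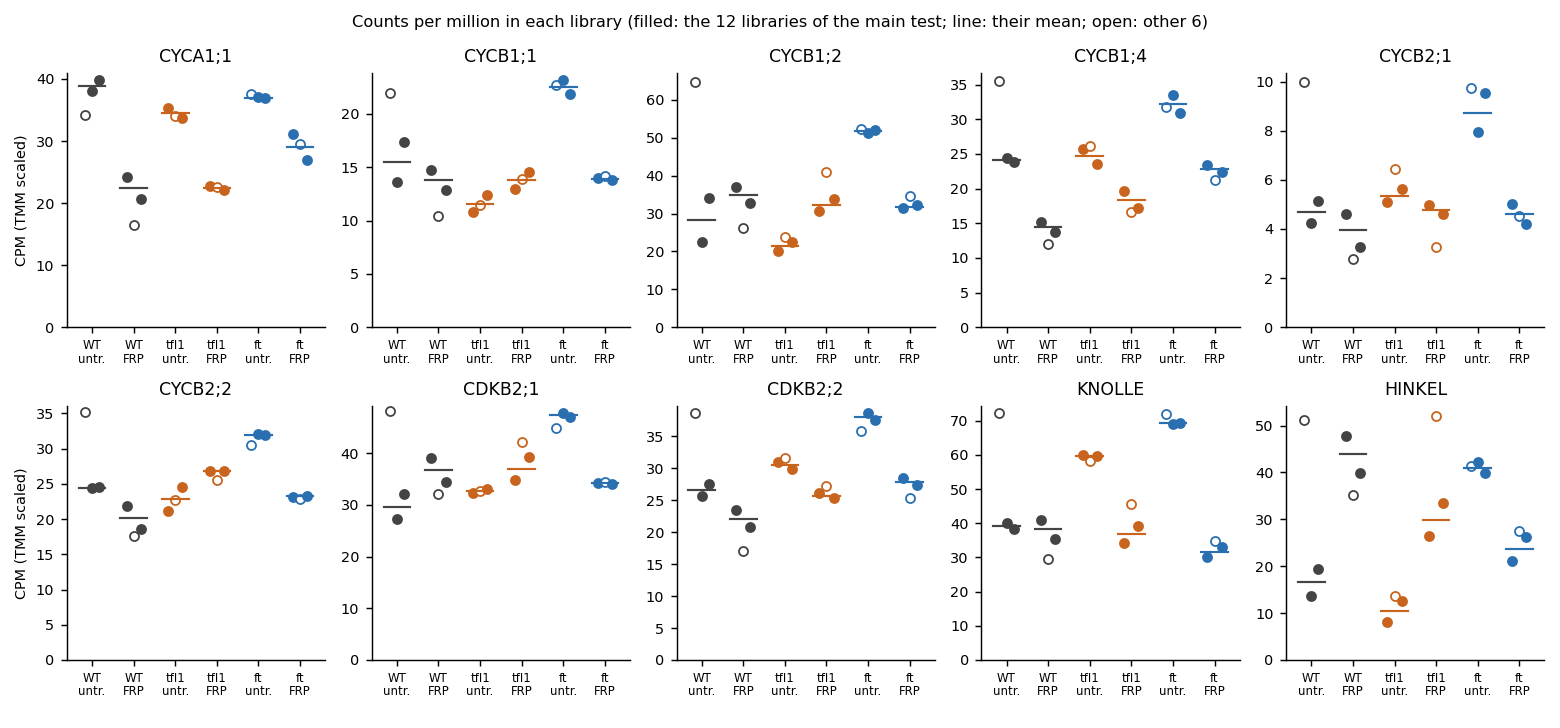
Level of each gene in every library, as CPM after TMM scaling of all 18 libraries on a linear axis from 0. Filled points are the 12 libraries of the main test, lines their group means and open points the other 6, and in each panel the 3 treated ft points lie below the 3 untreated ones, while the open point of untreated WT lies above the filled ones for every gene except CYCA1;1.

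CYCA1;1 (AT1G44110, chromosome 1 from 16774765 to 16777352 on the minus strand) encodes an A-type mitotic cyclin and went down in WT and tfl1. It stood at 34.2, 38.0 and 39.8 CPM in untreated WT (replicates 1, 2 and 3) and at 24.1, 16.5 and 20.7 CPM after FRP. In tfl1 it was at 35.3, 34.0 and 33.7 CPM and then 22.8, 22.6 and 22.2 CPM. In ft the values were 37.5, 37.0 and 36.9 CPM and then 31.2, 29.5 and 26.9 CPM. No treated library overlapped an untreated one in any genotype, and untreated WT replicate 1 was here the lowest of its group. The cyclin fell in WT (log2 difference -0.80, SE 0.0907, adjusted p = 6.19e-06) and in tfl1 (log2 difference -0.62, SE 0.0886, adjusted p = 9.02e-05), and both calls held in all 18 libraries. In ft the value missed the threshold (log2 difference -0.35, SE 0.0874, adjusted p = 0.00711). It was the only member not called higher in untreated ft than in untreated WT (log2 difference -0.073, SE 0.0877, adjusted p = 0.496).

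CYCB1;1 (AT4G37490, chromosome 4 from 17621886 to 17624308 on the minus strand) is the B-type cyclin best known as a reporter of cells in G2 and M phase. In WT it read 21.9, 13.6 and 17.4 CPM untreated and 14.7, 10.4 and 12.9 CPM after FRP, and the groups overlapped. The tfl1 libraries held 10.8, 11.4 and 12.4 CPM and then 13.0, 13.9 and 14.6 CPM, the lowest untreated level of the 3 genotypes. The ft libraries held 22.7, 23.2 and 21.9 CPM and then 14.0, 14.1 and 13.8 CPM, so that all treated groups ended within 10.4 to 14.7 CPM. The cyclin fell in ft (log2 difference -0.70, SE 0.116, adjusted p = 0.000620), also in all 18 libraries (log2 difference -0.69, SE 0.141, adjusted p = 0.00211). Neither WT (-0.16, adjusted p = 0.243, and -0.47, adjusted p = 0.00852, over 18 libraries) nor tfl1 (0.25, adjusted p = 0.0889) passed the test.

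CYCB1;2 (AT5G06150, chromosome 5 from 1859279 to 1861703 on the minus strand), annotated in RefSeq as CYC1BAT, is a second B1-type cyclin, and its changes in ft and tfl1 were opposite. Untreated WT held 64.8, 22.6 and 34.1 CPM and treated WT 36.9, 26.1 and 32.7 CPM, with replicate 1 of the untreated group far above the rest. Untreated tfl1 held 20.19, 23.9 and 22.5 CPM and treated tfl1 30.8, 40.9 and 33.8 CPM. Untreated ft held 52.4, 51.2 and 52.1 CPM and treated ft 31.4, 34.5 and 32.4 CPM. After treatment the 3 genotypes overlapped, while before it ft was above tfl1 in every library. The gene rose in tfl1 (log2 difference 0.60, SE 0.147, adjusted p = 0.00386) and fell in ft (log2 difference -0.70, SE 0.142, adjusted p = 0.00213), and in WT it was not called (log2 difference 0.30, SE 0.148, adjusted p = 0.0792), where its sign turned over all 18 libraries (log2 difference -0.34, SE 0.258, adjusted p = 0.251). The call in tfl1 was fragile: it was lost on leaving out any of 10 of the 12 libraries, and neither call held in all 18 libraries (0.0400 and 0.0693 as adjusted p in tfl1 and ft). Without untreated WT replicate 1, which is in no tfl1 or ft group but enters the shared spread, both were called. The log2 difference was then 0.66 in tfl1 (SE 0.144, adjusted p = 0.000800) and -0.66 in ft (SE 0.141, adjusted p = 0.00149).

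CYCB1;4 (AT2G26760, chromosome 2 from 11401118 to 11403433 on the plus strand), a further B1-type cyclin and one of the pair of members with no MSA core in the window, was lower after FRP in every genotype. Its CPM were 35.5, 24.4 and 23.9 in untreated and 15.2, 11.98 and 13.8 in treated WT. They were 25.8, 26.2 and 23.6 in untreated and 19.6, 16.7 and 17.2 in treated tfl1. In ft they were 31.8, 33.4 and 31.0 and 23.3, 21.2 and 22.4. Treated libraries lay below untreated ones in all 3 genotypes with no overlap. It fell in WT (log2 difference -0.74, SE 0.0902, adjusted p = 1.11e-05), tfl1 (log2 difference -0.42, SE 0.0853, adjusted p = 0.00105) and ft (log2 difference -0.49, SE 0.0834, adjusted p = 0.000681), and in all 18 libraries the calls in WT and tfl1 held while ft had an adjusted p of 0.00790. It was the only member called lower in all 3 genotypes.

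The B2-type cyclins differ from the B1 type in sequence and are likewise expressed at G2 and M. CYCB2;1 (AT2G17620, chromosome 2 from 7664055 to 7666522 on the plus strand) was the least abundant member. Its ft libraries held 9.75, 7.93 and 9.52 CPM untreated and 5.02, 4.52 and 4.21 CPM after FRP, without overlap. Its WT libraries held 9.98, 4.26 and 5.15 CPM and then 4.61, 2.77 and 3.28 CPM, and these groups overlapped. Its tfl1 libraries held 5.11, 6.45 and 5.61 CPM and then 4.96, 3.27 and 4.62 CPM, with the treated ones all lower. It fell in ft (log2 difference -0.92, SE 0.166, adjusted p = 0.00100), but this call did not hold over 18 libraries (adjusted p = 0.0114). It was not called in WT (-0.26, adjusted p = 0.232, and -0.85, adjusted p = 0.0120, over 18 libraries) or tfl1 (-0.16, adjusted p = 0.436).

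Its sister gene CYCB2;2 (AT4G35620, chromosome 4 from 16901596 to 16904001 on the plus strand) was several times as abundant, and in the 12 libraries its change was called only in ft. In ft it went from 30.6, 32.1 and 31.9 CPM to 23.1, 22.8 and 23.3 CPM. In WT it went from 35.2, 24.3 and 24.6 CPM to 21.8, 17.6 and 18.6 CPM, again with every treated library below every untreated one. In tfl1 the order was the opposite, with 21.2, 22.7 and 24.6 CPM untreated and 26.8, 25.6 and 26.8 CPM treated. The cyclin fell in ft (log2 difference -0.46, SE 0.0868, adjusted p = 0.00132), but this call did not hold in all 18 libraries (adjusted p = 0.0122). The value in WT passed the test in all 18 libraries (log2 difference -0.54, SE 0.122, adjusted p = 0.00122) and not in the 12 (log2 difference -0.28, SE 0.0914, adjusted p = 0.0148), and that in tfl1 did not pass (log2 difference 0.23, SE 0.0874, adjusted p = 0.0391).

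CDKB2;1 (AT1G76540, chromosome 1 from 28720328 to 28722550 on the minus strand) and CDKB2;2 (AT1G20930, chromosome 1 from 7292389 to 7294746 on the minus strand) encode closely related kinases. Both were called lower in ft in the 12 libraries. The first held 44.8, 47.7 and 46.9 CPM in untreated and 34.3, 34.5 and 34.0 CPM in treated ft, and fell by 0.47 on the log2 scale (SE 0.0912, adjusted p = 0.00156). The second held 35.9, 38.6 and 37.5 and 28.5, 25.4 and 27.3 CPM, and fell by 0.45 (SE 0.0736, adjusted p = 0.000558). Neither pair of groups overlapped, but over all 18 libraries neither call held (adjusted p = 0.0396 and 0.0165).

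In the other genotypes the kinases pointed in opposite directions in the 12 libraries, which for WT did not hold over all 18. CDKB2;1 held 48.1, 27.2 and 32.1 CPM in untreated and 39.1, 32.1 and 34.3 CPM in treated WT, and 32.3, 32.7 and 33.1 and 34.8, 42.1 and 39.2 CPM in tfl1. Its log2 differences in WT (0.31, adjusted p = 0.0100) and tfl1 (0.18, adjusted p = 0.110) were above 0 but not called, and over all 18 libraries the one in WT was -0.024 (adjusted p = 0.898). CDKB2;2 held 38.7, 25.6 and 27.6 and 23.5, 17.1 and 20.8 CPM in WT, and 31.0, 31.7 and 29.9 and 26.1, 27.2 and 25.4 CPM in tfl1. Its differences were below 0 in WT (-0.26, adjusted p = 0.00828) and tfl1 (-0.24, adjusted p = 0.0137), and the one in WT passed the test over all 18 libraries (log2 difference -0.58, SE 0.134, adjusted p = 0.00136). The annotated spans of the kinase genes overlap a gene on the other strand by 44 and 192 bases, and those neighbours (AT1G76530 and AT1G20925) had mean counts of only 0.889 and 1.5.

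KNOLLE (AT1G08560, chromosome 1 from 2709525 to 2711000 on the minus strand), listed in RefSeq as SYP111, had the largest fall of the 10 genes in ft. The ft libraries held 71.9, 69.1 and 69.4 CPM untreated and 30.02, 34.7 and 33.03 CPM after FRP. The tfl1 libraries held 60.0, 58.1 and 59.6 CPM and then 34.3, 45.6 and 39.2 CPM. WT libraries held 72.2, 40.1 and 38.2 CPM and then 41.1, 29.6 and 35.4 CPM. The syntaxin thus started high in both mutants and in untreated WT replicate 1, and all treated libraries ended between 29.6 and 45.6 CPM. It fell in ft to 0.455 of the untreated level (log2 difference -1.13, SE 0.0882, adjusted p = 3.35e-06) and in tfl1 to 0.614 (log2 difference -0.70, SE 0.0874, adjusted p = 3.19e-05), and was not called in WT, in the 12 libraries (log2 difference -0.035, SE 0.0899, adjusted p = 0.733) or in all 18 (log2 difference -0.50, SE 0.192, adjusted p = 0.0293). Over 18 libraries the fall in ft held (log2 difference -1.11, SE 0.192, adjusted p = 0.000675) and that in tfl1 did not (log2 difference -0.58, SE 0.191, adjusted p = 0.0180). Without untreated WT replicate 1, which is in neither tfl1 group but enters the shared spread, the fall in tfl1 was called (log2 difference -0.58, SE 0.106, adjusted p = 0.000204).

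KNOLLE shares 464 bases of its span with NPQ1 (AT1G08550), the gene for violaxanthin de-epoxidase, on the opposite strand, and NPQ1 counts moved much as those of KNOLLE did. NPQ1 stood at 34.8, 32.9 and 32.6 CPM in untreated and 15.03, 18.04 and 15.8 CPM in treated ft. It was at 23.7, 24.5 and 24.3 CPM in untreated and 13.5, 14.96 and 13.8 CPM in treated tfl1. In WT it was at 37.6, 21.8 and 21.7 and 17.5, 13.6 and 16.1 CPM, with replicate 1 again the highest of the untreated group. Its log2 differences upon FRP were -1.09 in ft, -0.81 in tfl1 and -0.38 in WT (adjusted p = 8.54e-07, 2.11e-06 and 0.00045), beside -1.13, -0.70 and -0.035 for KNOLLE. Reads ambiguous between genes were credited to none, so reads from the shared bases may be missing from both counts. How many were lost, and whether any NPQ1 reads were still counted to KNOLLE, cannot be told from these files. The values of KNOLLE are uncertain to that extent.

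HINKEL (AT1G18370, chromosome 1 from 6319450 to 6324378 on the minus strand) was the one member called higher upon FRP in both WT and tfl1. Its WT libraries held 51.3, 13.7 and 19.5 CPM untreated and 47.9, 35.2 and 39.8 CPM treated. Its tfl1 libraries held 8.13, 13.6 and 12.6 CPM and then 26.3, 52.0 and 33.4 CPM. Its ft libraries held 41.4, 42.2 and 39.8 CPM and then 21.2, 27.5 and 26.2 CPM. Treated and untreated libraries were separate in tfl1 and ft, in opposite directions, and in WT only untreated replicate 1 lay above all treated libraries. The kinesin rose 2.66-fold in WT (log2 difference 1.41, SE 0.207, adjusted p = 5.30e-05) and 2.9-fold in tfl1 (log2 difference 1.54, SE 0.211, adjusted p = 6.60e-05), and in ft it missed the threshold (log2 difference -0.79, SE 0.195, adjusted p = 0.00645). With all 18 libraries the WT difference was 0.54 (adjusted p = 0.198), while tfl1 kept its call (log2 difference 1.71, SE 0.379, adjusted p = 0.00153).

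HINKEL has the longest transcript of the 10, 3474 bases against 1367 to 1825 for the others, and the libraries differed in how counts depended on transcript length. The slope of log2 CPM on log2 length, relative to the mean of the libraries, was 0.288 to 0.314 per doubling in treated WT and -0.352 and -0.367 in untreated WT replicates 2 and 3, but 0.0823 in untreated replicate 1. In treated tfl1 it was 0.0515 to 0.337 and in untreated tfl1 -0.252 to -0.0978, and in ft it was -0.0143 to 0.0413 untreated and -0.211 to -0.0206 treated. After smooth trends on length and GC content were taken out, the HINKEL difference in WT was 0.29 (adjusted p = 0.108) in the 12 libraries and -0.18 (adjusted p = 0.474) in all 18, so the rise in WT was lost. In tfl1 it was 0.88 (adjusted p = 0.000361) and stayed past the threshold. For the 6347 genes with transcripts of 1300 to 1900 bases, like the other 9 members, the median log2 difference was -0.20 in WT, -0.11 in tfl1 and 0.013 in ft. With the trends removed from the 12 libraries, the members' median was 0.068 in WT, 0.21 in tfl1 and -0.56 in ft. With all 18 these medians were -0.36, 0.15 and -0.54, so that its sign in WT turned with the libraries.

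**Figure D3:**
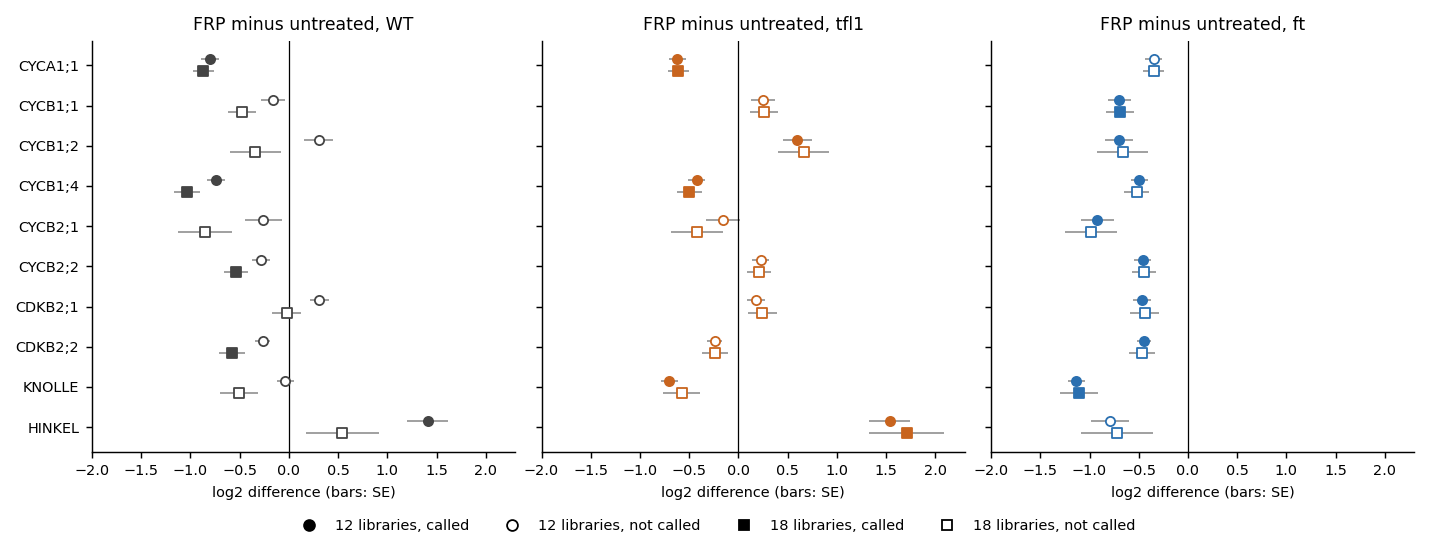
Log2 difference of FRP-treated over untreated plants for each gene in WT, tfl1 and ft. Circles are the 12 and squares the 18 libraries, bars are the standard error of the edgeR fit and filled symbols passed an adjusted p of 0.005, and all 20 symbols of the ft panel lie left of 0 while HINKEL lies right of 0 in the other panels.

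Whether FRP acted differently between genotypes was tested as the difference of the effects. Relative to ft, the effect in WT was higher for 4 members, HINKEL (log2 difference 2.20, SE 0.284, adjusted p = 2.51e-05), KNOLLE (log2 difference 1.10, SE 0.126, adjusted p = 9.77e-06), CYCB1;2 (log2 difference 1.00, SE 0.205, adjusted p = 0.000885) and CDKB2;1 (log2 difference 0.78, SE 0.131, adjusted p = 0.000200), and lower for 0, beside 29.2% of all genes in each direction. By DESeq2 the counts were again 4 and 0 (6136 and 5887 of all genes), and 6 and 1 at an unadjusted p under 0.05. Relative to ft, the effect in tfl1 was higher for 5 members, HINKEL (log2 difference 2.33, SE 0.287, adjusted p = 5.69e-05), CYCB1;2 (log2 difference 1.29, SE 0.204, adjusted p = 0.000261), CYCB1;1 (log2 difference 0.95, SE 0.168, adjusted p = 0.000546), CYCB2;2 (log2 difference 0.69, SE 0.123, adjusted p = 0.000585) and CDKB2;1 (log2 difference 0.65, SE 0.129, adjusted p = 0.00117), and lower for 0, beside 20.5% and 19.8% of all genes (DESeq2 5 and 0, unadjusted p under 0.05 for 7 and 0). The call of CDKB2;1 in this second comparison was lost on leaving out any 1 of 4 libraries. Between tfl1 and WT only KNOLLE differed, with a lower effect in tfl1 (log2 difference -0.67, SE 0.125, adjusted p = 0.00121), so 1 lower and 0 higher beside 13.9% of all genes each way (DESeq2 0 higher, unadjusted p under 0.05 for 3 higher), and this call was lost on leaving out 1 of the 12 libraries, untreated WT replicate 3. NPQ1, which overlaps KNOLLE, differed in the same directions, by 0.71 between WT and ft and by -0.44 between tfl1 and WT. Of all genes, DESeq2 called 4197 higher and 4311 lower for tfl1 relative to ft, and 2695 and 3494 for tfl1 relative to WT. These 3 comparisons share groups, so their values are not independent of each other.

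Fewer of these differences were called when all 18 libraries were used. The WT effect then differed from the ft effect for 0 members in either direction (12.7% of all genes higher and 18.4% lower), with 2 higher and 2 lower at an unadjusted p under 0.05. The tfl1 effect was above the ft effect for 2 members, HINKEL (log2 difference 2.43, SE 0.526, adjusted p = 0.00256) and CYCB1;1 (log2 difference 0.95, SE 0.2, adjusted p = 0.00209), and below it for 0 (8.67% and 9.22%), with 5 higher and 0 lower at an unadjusted p under 0.05. The tfl1 and WT effects differed for 0 members (2.18% higher and 2.57% lower), with 5 higher and 0 lower at an unadjusted p under 0.05. Without untreated WT replicate 1, the WT effect was above the ft effect for HINKEL, KNOLLE, CYCB1;2 and CDKB2;1, and below it for CYCA1;1 (6290 and 6375 of all genes). The tfl1 effect was above the ft effect for the same 5 members as in the 12 libraries and below it for 0 (4476 and 4387). That library is in no group of this comparison but enters the shared spread. Relative to WT, the tfl1 effect was higher for CYCB2;2 and lower for 0 (2845 and 2500).

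Before treatment, 9 of the 10 genes were higher in ft than in WT in the 12 libraries, and 0 were lower, beside 20.6% and 19.3% of all genes. DESeq2 gave 9 and 0 as well (4454 and 4000 of all genes), and so did an unadjusted p under 0.05. The largest differences were those of HINKEL (log2 difference 1.31, SE 0.206, adjusted p = 0.000272), CYCB2;1 (log2 difference 0.90, SE 0.173, adjusted p = 0.000993), CYCB1;2 (log2 difference 0.87, SE 0.146, adjusted p = 0.000401) and KNOLLE (log2 difference 0.82, SE 0.0884, adjusted p = 3.34e-05), and the median over the 10 genes was 0.61. NPQ1, on the other strand of KNOLLE, was higher by 0.59. With all 18 libraries 0 were called higher or lower, beside 0.201% and 0.21% of all genes, and 4 were higher and 0 lower at an unadjusted p under 0.05. Without untreated WT replicate 1 again 9 were called higher (17.6% of all genes). The call thus turned on that library, in which most of these genes were above every untreated ft library. The mean z-score of the 10 genes over the 18 libraries was 1.5 in untreated WT replicate 1, -0.49 and -0.012 in replicates 2 and 3, and 1.25 to 1.29 in untreated ft. Why this library stood apart was not tested. Without WT replicate 2 among the 12 libraries, the members' median was 0.51 and fewer of them were called higher.

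**Figure D4:**
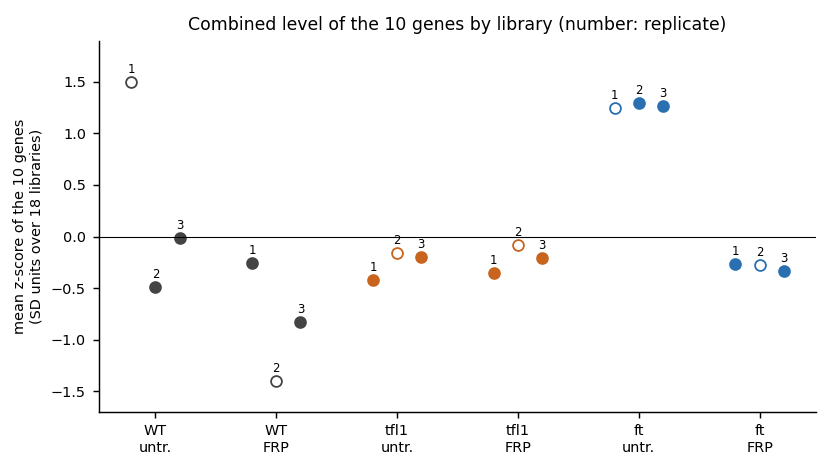
Mean z-score of the 10 genes in each library, in SD units over the 18 libraries, with the replicate number above each point. Filled points are the 12 libraries of the main test, and untreated WT replicate 1, an open point at 1.5, lies with the 3 untreated ft libraries and apart from the other untreated WT libraries.

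Untreated tfl1 differed from untreated WT in 1 of the 10 genes, KNOLLE, which was higher (log2 difference 0.61, SE 0.0884, adjusted p = 0.000289), while 0 were lower, beside 11.8% and 12.7% of all genes (DESeq2 1 and 0, unadjusted p under 0.05 for 2 and 3). Of all genes, DESeq2 called 2916 higher and 2409 lower here. In all 18 libraries 0 were called in either direction (4.05% and 2.76% of all genes), and 0 were higher and 4 lower at an unadjusted p under 0.05. HINKEL was the lowest of its 3 genotypes in untreated tfl1, at 8.13 to 13.6 CPM, though without a call against WT (log2 difference -0.68, SE 0.223, adjusted p = 0.0276).

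Markers of other cell types moved with the treatment as well. The summed CPM of 6 shoot meristem markers went from between 266 and 273 untreated to between 417 and 423 treated in ft, from between 259 and 264 to between 458 and 513 in tfl1, and from between 265 and 309.6 to between 415 and 485 in WT. This sum was thus higher after FRP in every genotype. Of the 5 meristem markers tested in ft, 3 were called higher and 1 lower, beside 12.8% and 12.6% of all genes. STM was among the higher ones (1.44, adjusted p = 1.34e-06), and the lower one was ANT (-0.64, adjusted p = 2.28e-05). In WT 2 of the 5 were called higher and 2 lower (33% and 33.4% of all genes), so the sum did not speak for each marker. In tfl1 2 were called higher and 0 lower (24.6% and 21.5% of all genes). The summed CPM of 4 green leaf markers went from between 12752 and 14325 to between 2748 and 4040 in WT, from between 12585 and 13706 to between 2845 and 3482 in tfl1, and from between 10879 and 11949.6 to between 7478 and 8498 in ft. All 4 were called lower in WT and tfl1 (33.4% and 21.5% of all genes), and in ft 1 was lower and 1 higher (12.6% and 12.8%). The pair of phloem markers summed to 30.6 to 52.7 CPM in untreated and 108 to 149 CPM in treated WT, to 62.1 to 64.7 and 58.1 to 96.6 CPM in tfl1, and to 48.7 to 53.2 and 54.7 to 75.2 CPM in ft. The pair of secondary wall markers summed to 13.3 to 16.2 CPM in untreated and 59.9 to 88.9 CPM in treated WT, to 14.1 to 18.3 and 22.2 to 56.8 CPM in tfl1, and to 15.2 to 17.9 and 22.01 to 36.9 CPM in ft. The part of these shifts in the values of the 10 genes was not tested.

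Other genes of G2, mitosis and cytokinesis pointed mostly downwards in ft, while in the other genotypes their direction was mixed and, in WT, turned with the libraries used. Of 44 such genes, chosen like the members with earlier results of these data known, 19 were lower and 1 was higher in ft (12.6% and 12.8% of all genes), with a median log2 difference of -0.51 against -0.0056. The largest falls among those with a mean count of 50 or more were MAP65-3 (-1.17, adjusted p = 6.06e-05), which bundles phragmoplast microtubules, the spindle factor TPX2 (-1.07, adjusted p = 5.21e-05) and the phragmoplast kinesin PAKRP1L (-1.02, adjusted p = 0.000663). In WT 19 were higher and 10 lower (33% and 33.4% of all genes), with a median of 0.20, led by the phragmoplast-orienting kinesin POK2 (2.51, adjusted p = 6.91e-05) and the HINKEL paralog TES/NACK2 (2.20, adjusted p = 9.71e-08) on one side and by CDKB1;2 (-1.37, adjusted p = 9.47e-07) and the mitotic exit regulator OSD1 (-1.36, adjusted p = 2.07e-06) on the other. In tfl1 19 were higher and 5 lower (24.6% and 21.5% of all genes), with a median of 0.21, again with POK2 (1.79, adjusted p = 0.00138) and TES/NACK2 (1.62, adjusted p = 1.38e-06) among the highest. Over all 18 libraries the counts were 0 higher and 1 lower in ft, 4 and 11 in WT, and 9 and 4 in tfl1, beside 5.43% and 6.49%, 24.5% and 28.1%, and 18.2% and 17.4% of all genes. The list's median was then -0.44 in ft, -0.16 in WT and 0.29 in tfl1, so that it changed sign in WT. The difference between genotypes was not tested for the list. These values were not adjusted for transcript length, on which counts depended differently between libraries. The part of length in the changes of the genes named was not tested.

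None of the genes of DNA replication and the G1 to S transition examined was called lower in ft. Of 22 such genes 1 was higher and 0 were lower in ft (12.8% and 12.6% of all genes), the higher one being TSO2 (0.44, adjusted p = 0.00208), a ribonucleotide reductase subunit. The median of the list in ft was nevertheless below 0, at -0.22 against -0.0056 for all genes. In tfl1 12 were higher and 0 lower (24.6% and 21.5% of all genes), with a median of 0.66, led by the replicative helicase gene MCM2 (1.52, adjusted p = 2.86e-06), the polymerase gene ICU2 (1.45, adjusted p = 4.93e-05) and MCM7 (1.45, adjusted p = 7.82e-07). In WT 11 were higher and 6 lower (33% and 33.4% of all genes), with a median of 0.38, and with ICU2 (2.35, adjusted p = 6.31e-07) and MCM4 (1.79, adjusted p = 6.51e-08) highest and the S-phase cyclins CYCA3;2 (-1.20, adjusted p = 1.62e-07) and CYCA3;1 (-1.19, adjusted p = 8.04e-06) lowest. With all 18 libraries the counts were 0 and 0 in ft, 12 and 0 in tfl1 and 10 and 7 in WT. The shares of all genes were then 5.43% and 6.49%, 18.2% and 17.4%, and 24.5% and 28.1%. Of 10 genes that restrain CDK activity, 2 were higher and 1 lower in ft, 5 and 2 in tfl1, and 1 and 4 in WT, which beside the same shares of all genes was near or below them in ft and WT. In ft SMR1, a CDK inhibitor of the SIAMESE family that promotes endoreduplication, rose (0.87, adjusted p = 0.000607), while it fell in WT (-1.59, adjusted p = 3.58e-06) and tfl1 (-0.90, adjusted p = 0.000277). The difference between these lists was not tested. Nor were their values adjusted for transcript length, so the part of length in the changes of the genes named was not tested.

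**Figure D5:**
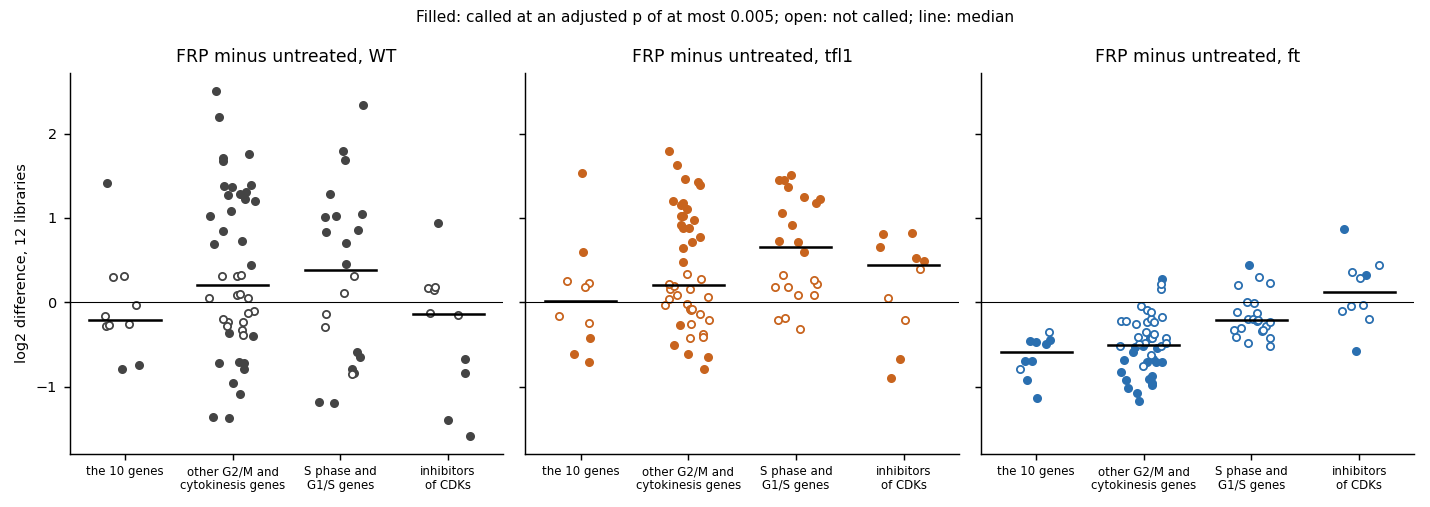
Log2 difference of FRP-treated over untreated plants in the 12 libraries for the 10 genes, 44 other G2/M and cytokinesis genes, 22 S phase and G1/S genes and 10 inhibitors of CDKs, by genotype. Each point is 1 gene, filled where it passed an adjusted p of 0.005, and the black lines are medians, which for the first 2 groups are -0.59 and -0.51 in ft.

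Across the 18 libraries the members varied together to different degrees. The Pearson r of log2 CPM over the 45 pairs had a median of 0.68 and ran from -0.39, between CYCA1;1 and HINKEL, to 0.94, between CYCB1;4 and CDKB2;2, and all pairs share libraries, depth and treatment groups. Among 18113 genes ranked, those most like the mean z-score of the members were ROPGEF6 (AT3G55660, r = 0.98), AT1G71695 (r = 0.98), ICR1 (AT1G17140, r = 0.97), AT3G01710 (r = 0.97) and CYCB2;4 (AT1G76310, r = 0.97), each over 18 libraries.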

How the data were processed

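Total RNA from shoot apices, freed of leaves and roots, was made into unstranded TruSeq libraries and sequenced as single-end reads. Per the labels and the study's methods, the authors ran Trimmomatic on the reads, mapped them with STAR 2.5.3a to TAIR10 and used HTSeq 0.7.2 with the Araport11 annotation, ignoring strand. They deposited raw counts of reads for each of 37336 genes. Rows that name no gene were left out (0.552% to 0.892% of reads on no feature, 2.78% to 3.40% ambiguous, 4.34% to 7.07% not unique). The groups are those of the titles.

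Genes entered the test if 2 or more libraries had 10 or more counts. After TMM scaling, 1 model of the 6 conditions was fitted in edgeR 4.0.16 (R 4.3.3), and quasi-likelihood p-values were adjusted by Benjamini-Hochberg over the genes tested, with calls at 0.005. The study instead used DESeq2 on each genotype, and DESeq2 1.42.0 served here as an alternative. The SE is the size of the log2 difference over the square root of its F. CPM values use TMM over 18 libraries. Named genes outside the 10 are at most the 3 per list and direction with the largest change past the threshold and a mean count of at least 50, and the 5 most like the members. The members and lists were chosen with earlier results of these data known. The code was tested on simulated data.

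The libraries are described as biological replicates, and replicates of 1 group differed by more than sampling noise in all 18 pairs (chi-square per degree of freedom 2.34 to 125). Same-numbered treated and untreated libraries had correlations of deviations from -0.17 to 0.38, with 4 of 9 above 0.1, all in tfl1 and ft. These values do not settle whether numbers mark pairs. The main fit did not use them as pairs, and a replicate block was run as an alternative. Alternatives were all 18 libraries, 17 without untreated WT replicate 1, a replicate block, each library left out, DESeq2, other size factors, other filters, only the conditions compared, a threshold of 0.05, and removal of trends on length and GC content (5 degrees of freedom). The last, over 18 libraries without a block, was added after the data had been seen. Transcript lengths and sequences came from RefSeq (TAIR10.1), which covered 37051 of the 37336 genes. Figures were drawn with matplotlib 3.10.9.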

Additional observations from a re-analysis of the deposited data

Results flagged for a closer look

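The effect of FRP differed between genotypes in 10 cases among the 10 genes, each by the edgeR test of the difference itself in the 12 libraries, on the log2 scale. Between WT and ft the difference was 1.00 for CYCB1;2, 0.78 for CDKB2;1, 1.10 for KNOLLE and 2.20 for HINKEL. Between tfl1 and ft it was 0.95 for CYCB1;1, 1.29 for CYCB1;2, 0.69 for CYCB2;2, 0.65 for CDKB2;1 and 2.33 for HINKEL. Between tfl1 and WT it was -0.67 for KNOLLE. In all 18 libraries the call held for CYCB1;1 and HINKEL between tfl1 and ft. Without untreated WT replicate 1, all the calls against ft held, and that of KNOLLE between tfl1 and WT did not. With trends on length and GC content removed in the 12 libraries, the HINKEL difference between WT and ft was 0.82 (adjusted p = 0.00425).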

How the results depend on the processing

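Counts of members called moved by more than 1.5 times in these cases. With all 18 libraries, WT had 0 higher and 4 lower, tfl1 1 higher, ft 2 lower, WT minus ft 0 higher, tfl1 minus ft 2 higher, tfl1 minus WT 0 lower, and both untreated comparisons 0 higher. From here on, brackets after a count of members hold the number of all genes called. With all 18 libraries and the replicate block the counts were the same except ft 3 lower (1219) and tfl1 minus ft 1 higher (1347). With trends on length and GC content removed from all 18, WT had 0 higher (4442), tfl1 1 higher (3775) and ft 2 lower (1751). In these fits WT minus ft had 0 higher (1605), tfl1 minus ft 3 higher (1691) and tfl1 minus WT 0 lower (856). Untreated tfl1 had 0 higher (1317) and 2 lower (1479), and untreated ft 0 higher (68). With the block added, tfl1 had 1 lower (3619) and tfl1 minus ft 2 higher (1501), the other counts of members being the same. The HINKEL difference in WT reversed to -0.18 in both of these fits. In the 12 libraries without these trends, tfl1 had 4 higher (4723), tfl1 minus ft 8 higher (2780) and untreated tfl1 1 lower (3146). Without untreated WT replicate 1, which leaves 17 libraries, WT had 4 lower (7463) and WT minus ft 1 lower (6375). In that fit tfl1 minus WT had 1 higher (2845) and 0 lower (2500). The replicate block in the 12 libraries gave 1 lower (6341) in WT minus ft. DESeq2 size factors gave 1 higher (5092) in tfl1, and library totals 2 higher (7894) in WT, where they shift the median of all genes to 0.12. At a threshold of 0.05, WT had 2 higher (8163) and 4 lower (8359) and WT minus ft 1 lower (7710). There tfl1 minus WT had 1 higher (5124) and untreated tfl1 3 lower (5114).

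Leaving out 1 library at a time gave ranges of 1 to 3 higher and 2 to 4 lower in WT, 1 to 2 higher and 2 to 4 lower in tfl1, 1 to 9 lower in ft, 4 to 5 higher and 0 to 1 lower in WT minus ft, 4 to 5 higher in tfl1 minus ft, 0 to 1 higher and 0 to 1 lower in tfl1 minus WT, 1 higher and 0 to 2 lower in untreated tfl1, and 5 to 9 higher in untreated ft. How many of all genes were called moved in these fits as well. The cause of these changes was not tested, except that a left-out library leaves its group with 1 library, assumed to vary like the others. DESeq2, both filters and the fit of only the conditions compared moved no count that far. With 2 libraries per group in the main test and a coefficient of variation between replicates of 0.0738 in the 12 and 0.161 in the 18, small differences could not be resolved. The p-values rest only on the spread between these libraries, and the 12 were selected by the authors after a principal component analysis.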

Other observations

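Several genes of DNA replication were lower in untreated tfl1 than in untreated WT in the 12 libraries, where the 10 mitotic genes showed 1 call in the other direction. Of the 22 S phase and G1/S genes 0 were higher and 9 lower (11.8% and 12.7% of all genes), with a median log2 difference of -0.40. The largest were MCM2 (-1.01, adjusted p = 0.000206), CYCA3;1 (-0.98, adjusted p = 0.000209) and MCM7 (-0.98, adjusted p = 6.73e-05). In all 18 libraries 5 were lower and 0 higher (2.76% and 4.05% of all genes), with a median of -0.48. These values were not adjusted for transcript length. WOX5, used here as a root marker, was detected although roots had been removed: its counts ran from 40 to 82 in untreated libraries, from 3 to 15 in treated WT and tfl1 and from 28 to 38 in treated ft, and it fell in WT (-3.17, adjusted p = 1.18e-06) and tfl1 (adjusted p = 0.000180), but in ft it missed the threshold (-0.86, adjusted p = 0.0161).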
